A study of Mus musculus with 2 samples.

Results

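The replication-dependent histone genes supply the bulk of the histone protein that is needed while DNA is copied. Their mRNAs are known to end in a conserved stem-loop instead of a poly(A) tail, to be bound there by the stem-loop binding protein Slbp, and to be destroyed when DNA synthesis stops. The core histones H2A, H2B, H3 and H4 form the nucleosome, and the linker histone H1 binds between nucleosomes. The genes were taken as the rows of both deposited gene tables whose identifier belongs, in GENCODE M21, to a protein-coding gene with a symbol of the form Hist1h to Hist4h. Of 67 such symbols, 64 had a row, among 43346 mouse genes in each table. The genes without a row under their own identifier were Hist2h2bb, Hist1h2bm and Hist1h2bh. There were 6 H1, 18 H2A, 15 H2B, 12 H3 and 13 H4 genes.

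The samples were 2 total RNA-seq libraries of the heart of healthy B6NCrl mouse embryos at embryonic day 11.5, with males and females pooled. Replicate 1 came from a pool of 109 embryos, and the number in the pool of replicate 2 is not given. The labels give each library its own biosample under a single donor identifier, 10 ng of RNA of a size range above 200 as input, and a general protocol for SmartSeq. There was 1 group, with no treatment and no genetic change, so the comparisons are among the histone genes, between them and other genes, and between the libraries. Values are given per library, and the SD is over the 2 libraries (n = 2).

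Expected counts over all rows came to 37617442 in replicate 1 and 27642765 in replicate 2. The heart muscle markers Actc1, Tnnt2, Myh7, Myh6 and Nkx2-5 were detected in both libraries, at a sum of 14282 TPM (a level corrected for transcript length and scaled to a fixed sum in each library) in replicate 1 and 15438 TPM in replicate 2. The erythroid markers Hbb-y, Hba-x and Alas2 were detected as well, at a sum of 38785 TPM in replicate 1 and 32270 TPM in replicate 2. What red blood cells contribute to the histone levels was not tested.

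The stem-loops of the genes on which the results turn are shown first, since the stem-loop is the feature that sets these mRNAs apart and some of the copies can hardly be told from each other there. Each line gives 30 bases of the mRNA-sense strand from the GENCODE M21 transcript, 5′ to 3′, and the capitals mark the 16-base stem-loop.
Hist1h2ap: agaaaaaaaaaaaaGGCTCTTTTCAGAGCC
Hist1h2ao: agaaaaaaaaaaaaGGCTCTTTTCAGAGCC
Hist1h2ae: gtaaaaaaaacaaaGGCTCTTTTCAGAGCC
Hist1h1c: ctaacaatccaaaaGGCTCTTTTCAGAGCC
Hist1h3c: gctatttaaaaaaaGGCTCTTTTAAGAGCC
Hist1h4d: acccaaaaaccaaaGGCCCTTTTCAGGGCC
Hist1h4i: caatgctacttaaaGGCCCTTTTTAGGGCC
A search for this stem-loop (GG, any 2 bases, CTTTT, any base, AG, any 2 bases and CC) in the first 100 bases after the stop codon, on the sense strand, found it in 42 of the 64 genes. Among 40198 protein-coding transcripts of all genes with at least 100 bases after the stop codon, 30 (0.0746%) held it. Those transcripts came from 28 genes, of which 24 were among the 64. The form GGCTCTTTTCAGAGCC stood in 24 histone genes (3 H1, 10 H2A, 6 H2B and 5 H3) and in no H4 gene. The form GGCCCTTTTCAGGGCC stood in 7 genes, all H4. Of the 22 genes without a match, 16 have a transcript model with under 60 bases after the stop codon, so a missing match says only that the letters are not in the window. The poly(A) signal AATAAA stood after the stop codon in the M21 models of 17 of the 64 genes, 12 of them among the 42 with a stem-loop. Hist1h2ae and Hist1h2bc held it, while Hist1h2ap, Hist1h4d and Hist1h3i did not. The share over all genes was not counted, and which 3′ end the mRNAs had was not tested.

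A single H2A gene was listed with most of the histone mRNA signal. Hist1h2ap (named H2ac24 in RefSeq) is a gene of 482 bases with 1 annotated transcript, on the minus strand of chromosome 13 from 21833026 to 21833507 (GRCm38). It had 21339 expected counts and 1952 TPM in replicate 1, and 12605 expected counts and 1634 TPM in replicate 2. It ranked 36 of 21474 protein-coding genes by mean TPM (1793 ± 225, SD, n = 2). It held 77.1% of the summed TPM of the 64 genes in replicate 1 and 77.3% in replicate 2, and 72.3% and 71.4% of their summed counts in replicates 1 and 2. The next gene, Hist1h4d, stood 14.7-fold lower in replicate 1 and 14.9-fold lower in replicate 2, at rank 996. The 64 genes together had 2531 TPM in replicate 1 and 2113 TPM in replicate 2, and 579 TPM and 479 TPM in replicates 1 and 2 without Hist1h2ap.

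The reads listed on Hist1h2ap cannot be assigned to that gene with certainty. Its copy Hist1h2ao, 480 bases on the plus strand of chromosome 13 from 21810465 to 21810944, has the same 393-base coding sequence, and the 2 transcripts share a run of 452 bases that includes the stem-loop printed above. Within this pair, 30 bases at the 5′ end are only in the model of Hist1h2ap, and 28 bases at the 3′ end only in that of Hist1h2ao. This is where the models start and end, and whether the genome differs there was not compared. The files list Hist1h2ao at 0 counts in both libraries. The posterior SD that the files give for Hist1h2ap was 47.4 reads in replicate 1 and 33.8 reads in replicate 2. The posterior mean for Hist1h2ao was 19.0 reads with an SD of 20.0 in replicate 1, and 14.1 reads with an SD of 14.7 in replicate 2. Of the 100-base windows of Hist1h2ap, 7.83% occurred in no transcript of another gene. Its coding sequence differed from that of Hist1h2ad and Hist1h2ag by 3 of 393 bases, and from that of Hist1h2ac and Hist1h2an by 5 bases. The value of 1793 TPM is therefore best read as that of the pair, with the split between the copies uncertain.

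Before the stem-loop, Hist1h2ap and Hist1h2ao carry a run of 12 A bases, as printed above. This was noticed after the levels were known. Among the 42 genes with a stem-loop match, the longest A run within the 30 bases before it was 12 bases in those copies, 8 in Hist1h2ae, 7 in Hist1h3c, and 2 to 5 in the other 38. Hist1h2ae was the second-highest H2A gene at 50.8 ± 7.09 TPM, while Hist1h3c had 4.89 ± 0.728 TPM and Hist1h4d, with a run of 5, had 121 ± 16.3 TPM (SD, n = 2). Over the whole M21 transcript, Hist1h2ac, at a mean of 2.1 TPM, had a longer run, of 15 bases, and Hist1h2be, at 1.6 TPM, had 11. The M21 transcript of Hist1h2ac has 2482 bases against 476 in the quantified model. The part of A runs in the levels was not tested.

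**Figure D1:**
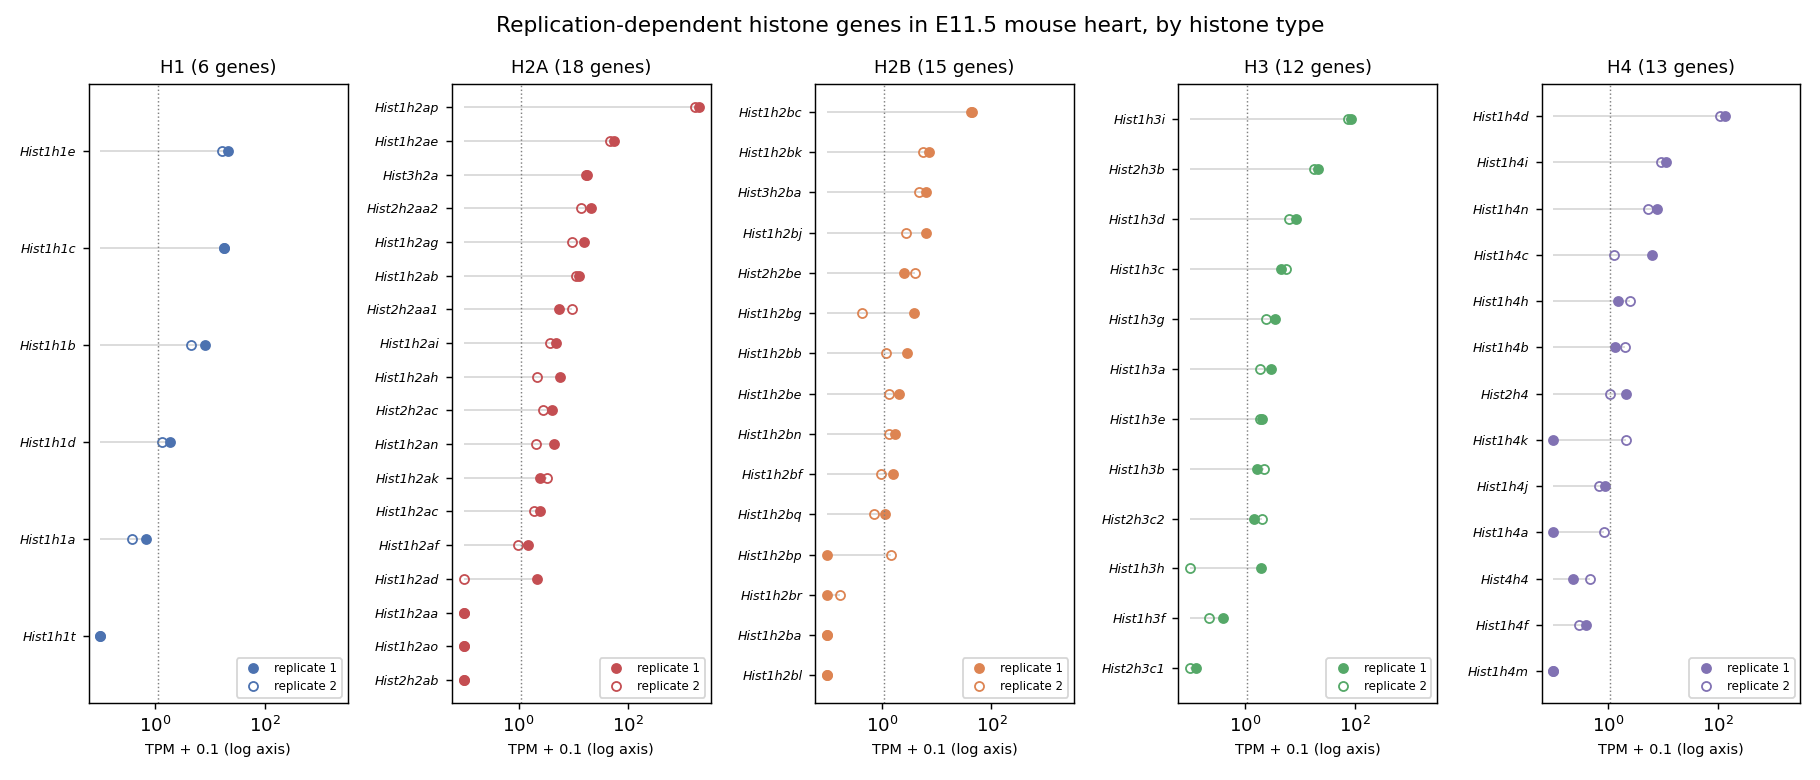
Levels of the 64 replication-dependent histone genes by histone type, as TPM + 0.1 on a log axis, with filled points for replicate 1 and open points for replicate 2. The dotted line marks 1 TPM. Hist1h2ap stands far to the right of every other gene, and in each type 1 or a few genes lead a long series of low ones.

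The listed levels of the family were uneven and mostly low. Whether the library protocol recovers mRNAs without a poly(A) tail as well as others was not tested. Of the 64 genes, 40 (62.5%) had 1 TPM or more in both libraries, beside 56.4% of all protein-coding genes. The median of their mean TPM was 2.01, beside 2.96 for all protein-coding genes. Among genes at 1 TPM or more in both libraries the medians were 4.64 TPM for histone genes and 15.99 TPM for protein-coding genes. There were 11 genes over 10 TPM in both libraries. The order of the leading genes was the same in both libraries and without overlap from Hist1h2ap through Hist1h4d, Hist1h3i, Hist1h2ae and Hist1h2bc to Hist2h3b. Below that, Hist2h3b, Hist1h1e, Hist1h1c, Hist3h2a and Hist2h2aa2 lay between 13.7 and 21.6 TPM. Hist1h1e and Hist1h1c changed places between the libraries, as did Hist3h2a and Hist2h2aa2, and the values of Hist2h3b and Hist1h1e overlapped.

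Of the linker histone genes, Hist1h1e and Hist1h1c led. Hist1h1e had 20.9 TPM in replicate 1 and 16.2 TPM in replicate 2, and Hist1h1c had 17.7 TPM in replicate 1 and 17.8 TPM in replicate 2. Hist1h1b had 7.94 TPM in replicate 1 and 4.39 TPM in replicate 2, and Hist1h1d had 1.77 TPM in replicate 1 and 1.24 TPM in replicate 2. Hist1h1a, at 9 counts in replicate 1 and 3 counts in replicate 2, stayed under 1 TPM in both. Hist1h1t, the testis H1 variant, was listed at 0 in both, a limit of 3 counts. The type summed to 48.9 TPM in replicate 1 and 39.9 TPM in replicate 2. A median of 99.6% of the 100-base windows of H1 genes was found in no transcript of another gene, the highest of the types. Those windows are of M21 transcripts, which for Hist1h1d has 7425 bases against 744 in the quantified model, and for Hist1h1e 1930 against 748.

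Among H2A genes other than Hist1h2ap, Hist1h2ae had 55.8 TPM in replicate 1 and 45.8 TPM in replicate 2. Hist3h2a, one of only 2 genes of the Hist3 cluster on chromosome 11, had 17.1 TPM in replicate 1 and 17.4 TPM in replicate 2. Hist2h2aa2 and Hist2h2aa1, with an identical coding sequence, had 20.5 TPM and 5.31 TPM in replicate 1 and 13.7 TPM and 9.48 TPM in replicate 2. Their shares thus moved in opposite directions between the libraries while their sum was 25.8 TPM in replicate 1 and 23.2 TPM in replicate 2, and the pair is better read together. Hist1h2aa, a variant of the testis, Hist2h2ab and Hist1h2ao were listed at 0 in both libraries. The 18 genes summed to 2106 TPM in replicate 1 and 1756 TPM in replicate 2, and without Hist1h2ap to 153 TPM in replicate 1 and 123 TPM in replicate 2. A median of 30.1% of their 100-base windows was found in no transcript of another gene.

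Of the H2B genes, Hist1h2bc stood apart at 43.6 TPM in replicate 1 and 43.1 TPM in replicate 2. Its transcript in M21, which is longer than the model in the files, runs 742 bases past the stop codon and has no stem-loop match in the first 100. Hist1h2bk had 7.11 TPM in replicate 1 and 5.62 TPM in replicate 2, and Hist3h2ba had 6.19 TPM in replicate 1 and 4.72 TPM in replicate 2. Hist1h2bj had 6.17 TPM in replicate 1 and 2.61 TPM in replicate 2. Hist1h2ba, a testis variant, and Hist1h2bl were listed at 0 in both libraries. For Hist1h2bl the posterior mean was 5.5 reads with an SD of 5.15 in replicate 1, and 2.52 reads with an SD of 2.49 in replicate 2. The type had 8 of 15 genes at 1 TPM or more in both libraries and summed to 78.2 TPM in replicate 1 and 67.0 TPM in replicate 2. That sum leaves out Hist2h2bb, Hist1h2bm and Hist1h2bh, which had no row under their own identifier.

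Hist1h3i led the H3 genes with 87.2 TPM in replicate 1 and 75.7 TPM in replicate 2. It is annotated with its 411 coding bases alone, and 31.4% of its 100-base windows were found in no transcript of another gene. Hist2h3b had 21.6 TPM in replicate 1 and 17.9 TPM in replicate 2, though each of its windows also occurred, on one strand or the other, in a transcript of another gene. Hist1h3d followed with 8.50 TPM in replicate 1 and 6.16 TPM in replicate 2, and Hist1h3c with 4.37 TPM in replicate 1 and 5.4 TPM in replicate 2. The 12 genes, of which 9 had 1 TPM or more in both libraries, summed to 135 TPM in replicate 1 and 115 TPM in replicate 2.

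Hist1h4d led the H4 genes with 132.6 TPM in replicate 1 and 109.6 TPM in replicate 2, from 1113 and 649 expected counts in replicates 1 and 2. Its posterior SD was under 1 read in both libraries, at 0.440 reads in replicate 1 and 0.330 reads in replicate 2. Hist1h4i had 11.3 TPM in replicate 1 and 8.95 TPM in replicate 2, Hist1h4n had 7.64 TPM in replicate 1 and 5.21 TPM in replicate 2, and Hist1h4c had 6.15 TPM in replicate 1 and 1.16 TPM in replicate 2. Hist1h4m, with the same coding sequence as Hist1h4n, was listed at 0 in both. Of 13 genes, 6 had 1 TPM or more in both libraries, and the sum was 163.6 TPM in replicate 1 and 134.1 TPM in replicate 2.

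**Figure D2:**
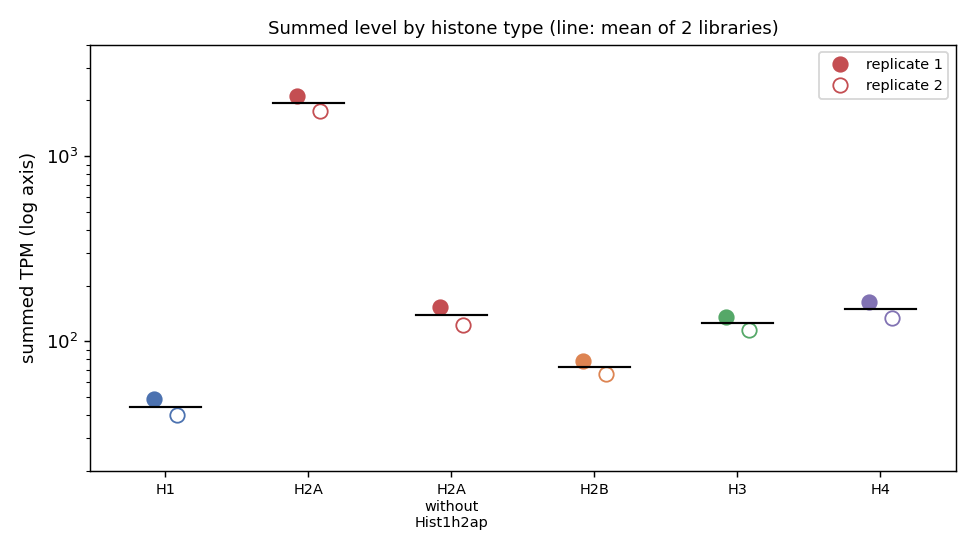
Summed TPM of the histone genes by type on a log axis, with filled points for replicate 1, open points for replicate 2 and a line at their mean. H2A stands at 2106 and 1756 TPM with Hist1h2ap in replicates 1 and 2, and at 153 and 123 TPM without it, near H3 and H4.

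Without Hist1h2ap, H2A, H3 and H4 lay near each other and H2B lower. The genes without a row, Hist2h2bb, Hist1h2bm and Hist1h2bh, are all H2B genes, so the H2B sum leaves them out. With transcripts listed under other gene identifiers, Hist2h2bb-201 among them, the mean H2B sum was 79.4 TPM in place of 72.6 TPM, and that of H3 125.8 TPM in place of 125.1 TPM. Of the TPM of the remaining 63 genes, H2A held 26.5% in replicate 1 and 25.6% in replicate 2, and H2B 13.5% in replicate 1 and 13.98% in replicate 2. H3 held 23.3% in replicate 1 and 24.1% in replicate 2, and H4 28.2% in replicate 1 and 28.0% in replicate 2. H1 held 8.44% in replicate 1 and 8.33% in replicate 2. These shares of the types differed between the libraries by under 1 percentage point.

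The genes lie in 4 clusters. The 52 genes of the Hist1 cluster on chromosome 13 summed to 2451 TPM in replicate 1 and 2040 TPM in replicate 2, or 498 TPM and 406 TPM in replicates 1 and 2 without Hist1h2ap. The 9 genes of the Hist2 cluster on chromosome 3 had 57.2 TPM in replicate 1 and 50.6 TPM in replicate 2. The 2 Hist3 genes had 23.3 TPM in replicate 1 and 22.1 TPM in replicate 2, and Hist4h4 on chromosome 6 had 0.130 TPM in replicate 1 and 0.370 TPM in replicate 2. High and low genes were neighbours within Hist1, as Hist1h2ap lies between Hist1h4n (6.43 ± 1.72 TPM) and Hist1h2br (1.57 ± 0.127 TPM with its transcript under another gene identifier, 0.0350 ± 0.0495 TPM in its own row, SD, n = 2).

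H2A and H2B genes often lie head to head, and 12 such pairs had both starts within 400 bases of each other (175 to 305 bases apart). The H2A gene was higher in both libraries in 6 pairs, the H2B gene in 3, and 3 were tied or mixed. The pairs Hist1h2ap/Hist1h2br and Hist1h2ao/Hist1h2bq rest on the uncertain split between identical copies. Of the other 10 pairs the H2A gene was higher in 5, the H2B gene in 2, and 3 were tied or mixed. This tally also rests in part on divided reads. The posterior SD in replicates 1 and 2 was 32.8% and 50.6% of the posterior mean for Hist1h2ai, and 35.1% and 66.5% for Hist1h2an. For Hist1h2ah, whose H2B partner was higher, it was 34.9% and 61.1%. Hist1h2ap had 1952 TPM in replicate 1 and 1634 TPM in replicate 2, while the row of its partner Hist1h2br was listed at 0 in replicate 1 and at 0.0700 TPM in replicate 2. With the transcript Hist1h2br-202, which the files list under another gene identifier, Hist1h2br had 1.48 TPM in replicate 1 and 1.66 TPM in replicate 2, and its split from Hist1h2bq, with an identical coding sequence, is uncertain. Hist1h2ae had 55.8 TPM and 45.8 TPM in replicates 1 and 2, and its partner Hist1h2bg 3.80 TPM and 0.330 TPM. The order was the opposite in Hist1h2ac, at 2.38 TPM in replicate 1 and 1.83 TPM in replicate 2, and Hist1h2bc, at 43.6 TPM in replicate 1 and 43.1 TPM in replicate 2. In these 3 pairs the partners differed by over 10-fold, in either direction.

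**Figure D3:**
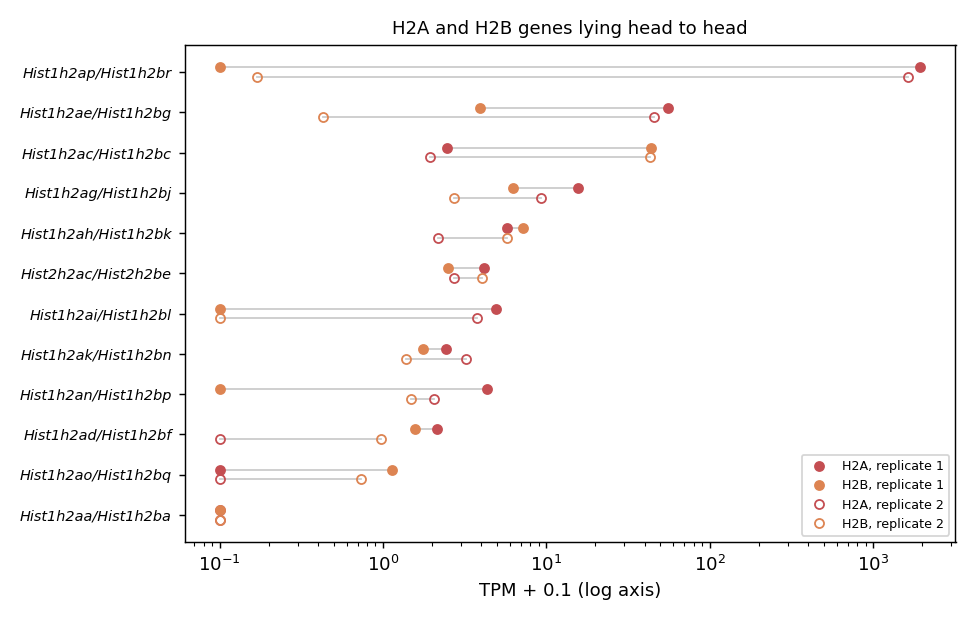
TPM + 0.1 on a log axis for the 12 head-to-head pairs of an H2A gene (red) and an H2B gene (orange), with filled points for replicate 1 and open points for replicate 2. Points of a pair lie far apart for Hist1h2ap/Hist1h2br and Hist1h2ac/Hist1h2bc, with H2A higher in the first and H2B higher in the second. Levels are those of each gene's own row, which for Hist1h2br leaves out 1 transcript.

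The promoters of the 2 highest genes are shown because they hold different sets of the elements known from histone promoters. Each runs from 250 bases before to 50 bases after the start that RefSeq gives on GRCm38.p6, and capitals mark TATAAA and CCAAT on either strand. For Hist1h2ap that start is the start codon, while for Hist1h4d it lies before the start codon, so the windows are not placed alike.
Hist1h2ap, chr13:21833426-21833725, minus strand: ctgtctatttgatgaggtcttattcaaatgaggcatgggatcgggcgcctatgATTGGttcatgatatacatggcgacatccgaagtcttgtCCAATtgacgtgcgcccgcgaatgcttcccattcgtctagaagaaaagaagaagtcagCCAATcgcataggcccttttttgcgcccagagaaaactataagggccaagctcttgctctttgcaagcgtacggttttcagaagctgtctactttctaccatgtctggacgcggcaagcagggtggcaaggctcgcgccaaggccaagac
Hist1h4d, chr13:23581318-23581617, plus strand: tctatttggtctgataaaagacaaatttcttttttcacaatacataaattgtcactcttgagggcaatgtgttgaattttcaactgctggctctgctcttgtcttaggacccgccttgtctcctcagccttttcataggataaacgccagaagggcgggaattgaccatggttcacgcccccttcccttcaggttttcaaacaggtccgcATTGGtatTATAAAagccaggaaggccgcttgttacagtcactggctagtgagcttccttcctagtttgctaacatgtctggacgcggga
Hist1h2ap holds CCAAT 3 times and no TATAAA in this window, and Hist1h4d holds 1 of each. Of the 64 genes, 59 were matched to a promoter of this length. TATAAA was found in 59.3% of them and in 13.6% of 32851 RefSeq promoters, CCAAT in 84.7% and 37.4%, and the octamer ATTTGCAT, known as an H2B promoter element, in 18.6% and 1.74%, each on either strand. CCAAT stood in every matched promoter of H1, H2A, H2B and H3 genes and in 25% of the 12 of H4 genes. ATTTGCAT stood in 4 of 13 H2B and 7 of 18 H2A promoters and in none of the other types, and an element between head-to-head genes can fall in the windows of both. The Hist1h2ap and Hist1h2ao windows share a run of 200 bases, from the start of the Hist1h2ap window to the end of the Hist1h2ao window. The windows are offset along the copies, so the run is their whole overlap and the remaining bases were not compared. Matches are of letters in this window and say nothing of binding.

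The transcript models of these genes in the files were short, with a median length of 483.5 bases (312 to 2879). Of the 44 genes whose model had the same length in M21, 17 had a model that ends within 60 bases after the stem-loop, with a median of 3.34 TPM (0 to 1793). The 9 whose model runs more than 60 bases past the stem-loop had a median of 1.86 TPM (0.0150, for Hist2h3c1, to 17.8), and the 14 whose model ends within 10 bases of the stop codon had a median of 1.30 TPM (0 to 81.5). The ranges of these groups overlap. A further transcript of Hist2h3c1, listed under another gene identifier, brings that gene to 0.960 TPM in replicate 1 and 0.510 TPM in replicate 2. Of the 64 genes, 4 had several transcripts in the files, and in Hist1h2be, an H2B gene, the transcript Hist1h2be-203 held 81.7% of the level in replicate 1 and 76.0% in replicate 2.

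A wide posterior was more frequent among these genes than among protein-coding genes. The genes were not matched on counts, and the median count in replicate 1 was 35.6 over all histone genes and 203 over all protein-coding genes. The part of near-identity in the posterior SD was not tested. Among genes with 10 or more counts, the posterior SD exceeded 25% of the posterior mean in 9 of 49 histone genes (18.4%) in replicate 1 and 10 of 41 (24.4%) in replicate 2, beside 0.556% of protein-coding genes in replicate 1 and 0.540% in replicate 2. Within types, coding sequences of equal length had a median identity of 96.4% for H2A, 97.4% for H2B, 97.2% for H3 and 93.9% for H4. Besides Hist1h2ap and Hist1h2ao, the pairs Hist2h2aa2 and Hist2h2aa1, Hist1h2bq and Hist1h2br, Hist2h3c2 and Hist2h3c1, and Hist1h4n and Hist1h4m had identical coding sequences. The files put over 90% of the summed counts on 1 copy in both libraries in 2 of these 5 pairs, Hist1h2ap with Hist1h2ao and Hist1h4n with Hist1h4m, once transcripts listed under other gene identifiers were added to their genes. In all, 23 genes were overlapped by another annotated gene, 20 of them by 1 on the opposite strand, from which reads cannot be told apart without strand. Only for Hist1h4b, Hist2h2aa1, Hist2h2aa2, Hist2h2ab and Hist2h3b did a gene on the opposite strand have listed values, at 0.02 to 1.37 TPM. For the rest, Hist1h2ap included, it was a miRNA gene without a row. The share of such overlaps over all genes was not counted.

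**Figure D4:**
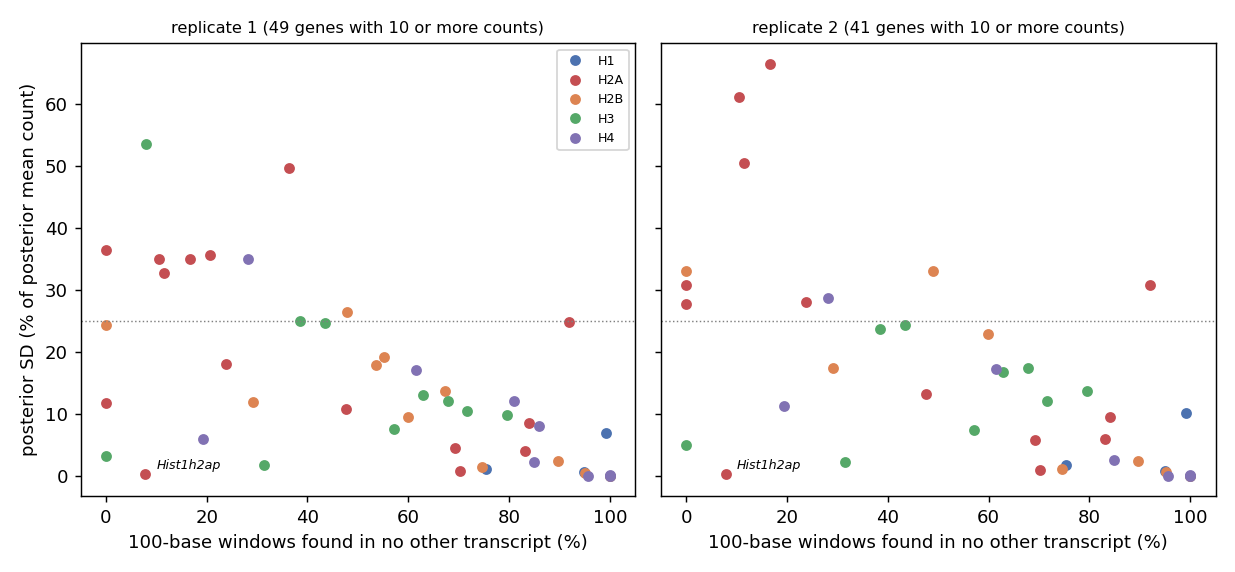
Posterior SD as a percent of the posterior mean count (y axis) against the percent of 100-base windows found in no other gene's transcript (x axis), for histone genes with 10 or more counts in replicate 1 (left) and replicate 2 (right), coloured by type, with a dotted line at 25%. High values lie mainly on the left of each panel, and Hist1h2ap combines 7.83% of such windows with an SD of under 1% of its count.

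Compared with the replacement histones, which are made throughout the cell cycle from mRNAs that are mostly polyadenylated, the outcome depended on the type. Which of the histone mRNAs had a poly(A) tail was not measured. Whether mRNAs with and without a tail were recovered alike was not tested, so these ratios are of listed levels only. The 12 replication-dependent H3 genes had 135 TPM in replicate 1 and 115 TPM in replicate 2, against 1907 TPM and 1909 TPM in replicates 1 and 2 for H3f3a and H3f3b, the genes of H3.3. That is a log2 ratio of -3.94 ± 0.163 (SD, n = 2), or 14.1-fold lower in replicate 1 and 16.6-fold lower in replicate 2. The 6 replication-dependent H1 genes had 48.9 TPM in replicate 1 and 39.9 TPM in replicate 2, against 65.9 TPM and 133.2 TPM for H1f0 and H1fx, a log2 ratio of -1.08 ± 0.925. The spread there came from H1f0, at 49.2 TPM in replicate 1 and 118.2 TPM in replicate 2. The 18 replication-dependent H2A genes had 2106 TPM and 1756 TPM in replicates 1 and 2, against 1637 TPM and 1576 TPM for H2afz, H2afv, H2afx, H2afy, H2afy2 and H2afj, a log2 ratio of 0.26 ± 0.146. That ratio was -3.55 without Hist1h2ap and -1.14 on library-scaled counts with no correction for length. No test was made, because an exact sign-flip test (two-sided) on 2 values cannot go below p = 0.5.

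The genes known to make, process and remove these mRNAs were present. Of 23 genes of histone transcription and 3′ processing, 22 had 1 TPM or more in both libraries, with a list median of 24.7 TPM in replicate 1 and 24.9 TPM in replicate 2. Slbp led at 125 ± 1.85 TPM, followed by the cap-binding subunit Ncbp2 at 66.8 ± 0.962, the endonuclease Cpsf3, which cuts the pre-mRNA, at 56.0 ± 5.60 and Wdr33, of the cleavage complex, at 48.9 ± 4.14 TPM (SD, n = 2). Npat, the coactivator at histone loci, had 13.8 ± 0.354 TPM, and the zinc finger protein gene Zfp473 was lowest at 0.640 ± 0.297 TPM. All 10 genes of histone mRNA decay were detected, from Exosc10, an exosome nuclease, at 57.3 ± 2.28, the uridylyltransferase gene Tut4 at 38.1 ± 2.85, Lsm1 at 23.4 ± 1.02 and the exonuclease gene Eri1 at 17.2 ± 1.05 to the decapping enzyme gene Dcp2 at 6.02 ± 2.11 TPM (SD, n = 2).

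All 20 histone chaperone genes were detected, led by Rbbp7 at 334 ± 23.9, Rbbp4 at 239 ± 6.47, Ssrp1 of the FACT complex at 138 ± 7.95 and Tonsl at 129 ± 4.66 TPM, and lowest for the H3.3 chaperone gene Hira at 5.39 ± 0.247 TPM (SD, n = 2). All 18 S phase genes were detected. Rrm2, of ribonucleotide reductase, had 162 ± 9.85, the sliding clamp gene Pcna 155 ± 0.686, the helicase subunit gene Mcm6 146 ± 6.80 and Rrm1 111 ± 6.36 TPM, and E2f1 was lowest at 5.27 ± 0.700 TPM (SD, n = 2). The median over the 64 histone genes was 2.35 TPM in replicate 1 and 1.94 TPM in replicate 2. For the S phase list it was 66.4 TPM and 74.3 TPM in replicates 1 and 2. A difference in recovery of mRNAs without a poly(A) tail was not tested here either.

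For each histone gene, rounded counts of the libraries were set against each other in an exact binomial test (two-sided), with Benjamini-Hochberg adjustment over all 16621 mouse genes that had a summed count of 20 or more. This covers counting error alone and compares 2 pools, not conditions. Of 47 histone genes tested, 8 were higher in replicate 1 by at least 2-fold with an adjusted p below 0.05 (all genes, 3.32%), and 1 was higher in replicate 2 (all genes, 1.37%). At any fold, 17 were higher in replicate 1 (all genes, 18.4%) and 3 in replicate 2 (all genes, 21.2%). The median log2 ratio of replicate 1 over replicate 2 was 0.41 over the 47 genes and 0.00 over all genes tested, and it was above 0 for 80.9% of histone genes and 49.9% of all genes. In bulk tissue, fewer cells that make a transcript and less of it per cell cannot be told apart. The erythroid markers had a median log2 ratio of 0.28, the heart muscle markers -0.03 and the S phase genes -0.05, and none of these genes reached the 2-fold limit. At any fold, Hbb-y (log2 ratio 0.28), Hba-x (0.41), Alas2 (0.19) and Tnnt2 (0.06) were higher in replicate 1 with an adjusted p below 0.05 (exact binomial test). Myh6 (-0.47), Myh7 (-0.31) and Actc1 (-0.03) were lower, and Nkx2-5 did not pass. Some S phase genes also passed, in either direction, as Mcm2 (-0.18) and Tyms (0.12). The part of red blood cells in the histone ratio was not tested.

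The genes called were mostly ones with few reads. Hist1h2bg had 41.0 counts in replicate 1 and 2.50 counts in replicate 2 (log2 ratio 3.60, exact binomial test, adjusted p = 5.03e-07), and its posterior SD was 8.12 reads in replicate 1 and 3 reads in replicate 2. Hist1h4c had 52.0 counts in replicate 1 and 6.92 counts in replicate 2 (log2 ratio 2.35, exact binomial test, adjusted p = 4.04e-06). Hist1h2ad had 21.2 counts in replicate 1 and 0 in replicate 2, where 3 counts is the limit, yet its posterior means were 23.8 ± 11.8 reads in replicate 1 and 4.30 ± 4.43 reads in replicate 2 (posterior SD). The others higher in replicate 1 were Hist2h4, Hist1h2bj, Hist1h2ah, Hist1h2an and Hist1h2bb, with log2 ratios of 1.05 to 1.42. Hist4h4 was higher in replicate 2, with 10 counts in replicate 1 and 21 in replicate 2. The test takes counts that the authors' model divided among copies as observed, so its p-values are too small for genes with a wide posterior. The gene with the most reads, Hist1h2ap, had a log2 ratio of 0.31 (exact binomial test, adjusted p = 4.12e-78) and was under the 2-fold limit.

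**Figure D5:**
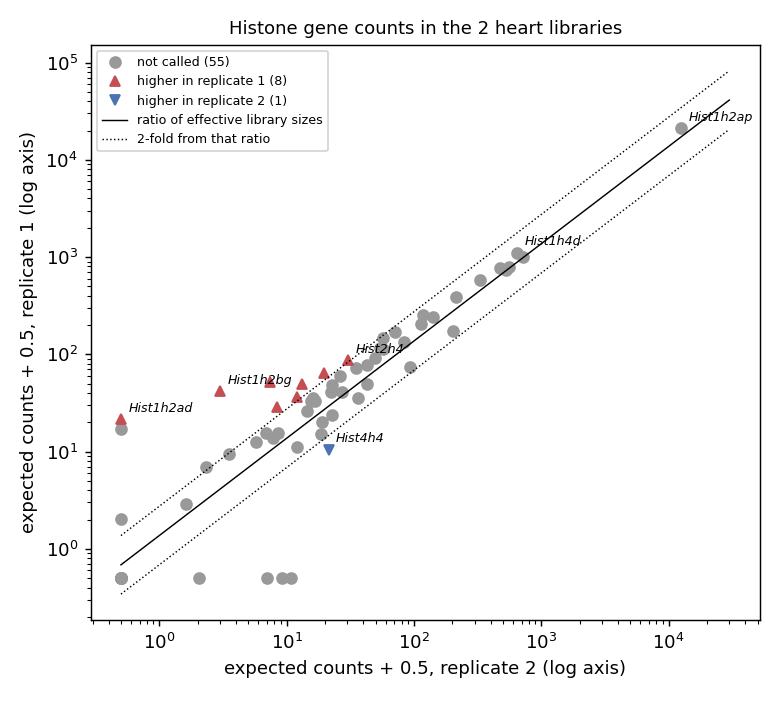
Expected counts + 0.5 of the 64 histone genes in replicate 1 (y axis) against replicate 2 (x axis), both on log axes. The solid line is the ratio of effective library sizes and the dotted lines are 2-fold from it; 8 genes called higher in replicate 1 (upward triangles) and 1 called higher in replicate 2 (downward triangle) lie below 100 counts.

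Across the 64 genes, log2(TPM + 1) had a Pearson r of 0.956 and Spearman rho of 0.877 between the libraries, and an r of 0.937 without Hist1h2ap. This is a description across genes, which are not independent replicates, and several share reads.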

How the data were processed

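Per the file headers, the authors deposited expected counts (reads per row as estimated by a model, without normalization), TPM, posterior means and SDs of counts, and the percent of a gene's level in each transcript. The deposited README names mm10 and annotation release M4. Which quantifier and strand setting were used is not given in the sources used here. Effective lengths in replicate 1 lay 99 bases below the length for all 64 genes, which raises the TPM of short ones. The difference in replicate 2 was not counted. Symbols, coordinates and sequences came from GENCODE M21 (GRCm38), and promoters from RefSeq (GRCm38.p6). For 20 of 64 genes the M21 transcript had another length than in the files, so sequence features describe M21 models. Identities are of coding sequences, not proteins.

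The members and lists were chosen with earlier results of these data known. Genes named were, per type, the 4 highest by mean TPM, every H1, those called between libraries, those listed at 0 and testis variants, and, per list, the 4 highest and the lowest. Any other gene was named after its values were seen. 1 marker gene is not reported here. Expected counts were rounded for the binomial test, which was tried on simulated counts, with effective sizes from TMM (edgeR 4.0.16, R 4.3.3) and 0.5 added for folds. A count of 0 allows up to 3 counts (0.0871 CPM of mouse gene counts in replicate 1, 0.119 CPM in replicate 2), counting error only. The posterior mean of a gene that shares reads, such as Hist1h2ao or Hist1h2bl, can lie above that limit. Replicates are separate biosamples by label alone, so the spread may be technical. Python 3.11.15 with scipy 1.17.1 was used.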

Additional observations from a re-analysis of the deposited data

Results flagged for a closer look

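Reads also fell on histone transcripts outside the 64 rows, above the 3 counts that a count of 0 allows; these libraries have no controls. The pseudogene Hist1h2aj was listed with 15.52 counts in replicate 1 and 22.29 counts in replicate 2 (posterior SD 13.1 and 12.7 reads), and the processed pseudogene Hist1h2al with 5.60 counts in replicate 1 and 4.38 counts in replicate 2. Transcripts that M21 assigns to histone genes but the files list under another gene identifier had counts as well. Hist2h2bb-201 had 41.82 counts in replicate 1 and 27.84 in replicate 2, and Hist2h3c1-202 had 45.88 counts in replicate 1 and 17.89 in replicate 2. Hist1h2br-202 had 11.94 counts in replicate 1 and 9.02 in replicate 2, and Hist1h2bq-201 had 4.46 counts in replicate 1 and none in replicate 2. The group of 2 libraries is too small for a search for outlying samples.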

How the results depend on the processing

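The order of the first 5 genes was the same with posterior mean TPM, with full gene length in place of effective length and with TPM rescaled over protein-coding genes, while CPM put Hist3h2a after Hist1h4d. Without a correction for length, CPM summed to 35.1 for H1, 625 for H2A, 40.7 for H2B, 36.4 for H3 and 40.9 for H4, so the types other than H2A came closer together, and the log2 ratios to replacement histones were -2.11 for H1, -1.14 for H2A (reversed) and -5.56 for H3. Rescaling over protein-coding genes gave 58.9, 2563, 96.3, 166.1 and 197.6 TPM for H1, H2A, H2B, H3 and H4. Full gene length gave 109.6 TPM for H3 and 127.6 TPM for H4, and log2 ratios of 0.067 for H2A and -4.17 for H3. Without Hist1h2ap, a choice made after seeing the data, H2A had 138.1 TPM and its log2 ratio was -3.55 (reversed).

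Leaving out 1 library in turn gave sums of 39.9 to 48.9 TPM for H1, 1756 to 2106 for H2A, 66.9 to 78.2 for H2B, 115.2 to 135.0 for H3 and 134.1 to 163.6 for H4. It gave log2 ratios of -1.74 to -0.43 for H1, 0.16 to 0.36 for H2A and -4.05 to -3.82 for H3, and 42 to 47 genes at 1 TPM or more. A limit of 5 TPM left 17 genes detected. Library totals or DESeq2 size factors in place of TMM kept the count of genes called between libraries at 9, no minimum count gave 12, and no minimum fold gave 20. Allowing 1 mismatch gave 44 stem-loops. No paired analysis was possible because there is 1 group. With few counts on most of these genes, depth limits what can be said of the low ones, and sharing of reads limits the split between copies.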
